A study of Mus musculus with 4 samples.

Results

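The regained regions are stretches of the left ventricle's genome whose histone H3 acetylation was lower after pressure overload and higher when overloaded animals received a deacetylase inhibitor. They were taken as the regions of the authors' list for TAC Veh below Sham Veh that share at least 1 bp with a region of their list for TAC TSA above TAC Veh. These are called the lower list and the higher list. On chromosomes 1 to 19 of the mm9 build, 349 of the 3797 regions of the lower list met this rule (9.19%). They met 346 of the 2091 regions of the higher list (16.5%). Because the rule joins comparisons that share the TAC Veh library, these counts describe the lists and were not tested. The regions were thus chosen by the calls in both lists, and the scores did not enter the choice.

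Chromatin was immunoprecipitated with an antibody against acetylated histone H3 and sequenced, using the left ventricle of C57BL6 males of 10 to 12 weeks. The Sham Veh group had a sham operation and vehicle (DMSO). The Sham TSA group had a sham operation and trichostatin A (TSA), which blocks zinc-dependent histone deacetylases. The TAC Veh group had transverse aortic constriction (TAC), a narrowing of the aorta that loads the ventricle with pressure, and vehicle. The TAC TSA group had TAC and TSA. TSA was given at 0.6 mg per kg per day, dissolved in DMSO, and all animals were injected under the skin 2 times a day for 4 weeks. There were no replicates, since a group is 1 library, and how many animals a library holds is not stated. Both sham libraries carry a reference to an earlier deposit that the TAC libraries lack, and whether sham and TAC libraries were prepared together is not stated.

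Histone acetyltransferases add acetyl groups to lysines of the histone tails, and histone deacetylases remove them. Acetylated H3 marks open chromatin at active promoters and enhancers. In the heart under pressure overload, adult contractile and metabolic genes are known to be turned down while fetal and matrix genes are turned up, and deacetylase inhibitors have long been studied for their effect on hypertrophy. The lists cover regions anywhere in the genome. Counts per library were used for promoters only.

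The regained regions were wider and higher in score than the rest of the lower list. Their width ran from 320 to 10612 bp with a median of 1354 bp, against a median of 983.5 bp in the 3448 other regions of that list. The deposited score is the authors' value for a region, whose definition is not given in the sources used here. It starts near 40 in every list and serves here to order the regions of 1 list. In the lower list the regained regions had a median score of 59.03 (quartiles 49.75 and 82.11) and the others 48.22. A score of at least 100 was held by 53 regained regions (15.2%), against 127 of all 3797 (3.34%). Together they covered 0.636 Mb, which is 11.9% of the length of the lower list. Their partners in the higher list had a median width of 1062 bp and a median score of 53.3, against 595 bp and 45.64 in the 1745 regions of that list without a partner. A wide region meets another more easily, and scores come from the contrasts of the rule, so neither was tested.

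Split into 10 equal bins by score, the lower list held 13 regained regions among 379 in the lowest bin (3.43%) and 101 among 380 in the highest (26.6%). Split by width, the share ran from 3.96% in the narrowest bin to 16.1% in the widest. With width and score each split into 4 equal bins, 4 of 132 of the widest regions were regained in the lowest bin of scores (3.03%) and 89 of 419 in the highest (21.2%). Among the narrowest regions the shares were 12 of 375 (3.2%) and 8 of 72 (11.1%). The share was higher at high score in the widest and in the narrowest regions. The score comes from a comparison that the rule used and that shares TAC Veh with the other. A rise with score is thus favoured by the rule and was not tested.

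**Figure D1:**
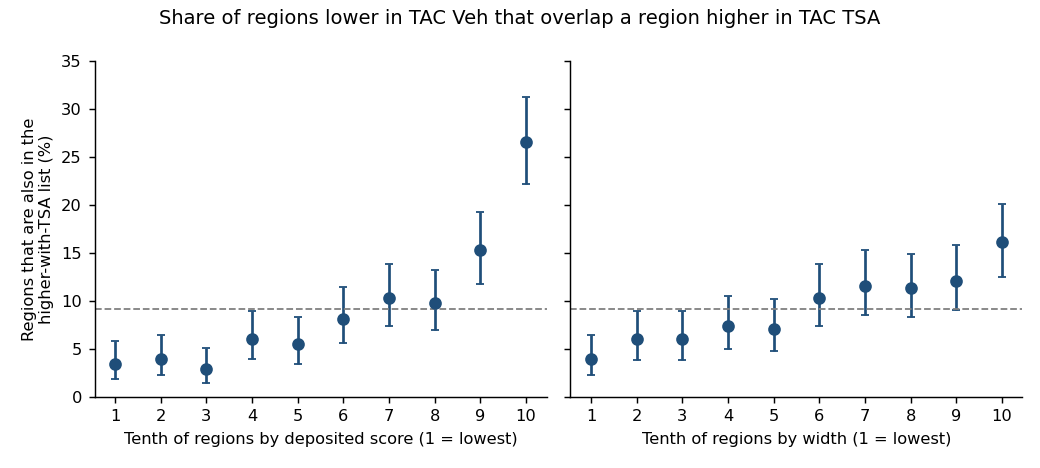
Percent of lower-list regions that overlap a region higher in TAC TSA than TAC Veh, by decile of score (left) and width (right), with exact binomial 95% intervals (counting error only) and the share over the whole list, 9.19%, as a dashed line. The share was 3.43% in the lowest and 26.6% in the highest decile of score. Score and width both bear on the rule, so neither rise was tested.

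Partners covered most of the length of the regained regions. The partners covered a median of 82.5% of a regained region (quartiles 61.5% and 94.4%), and 291 of 349 were covered over at least 50% of their length. A regained region lay wholly inside its partner in 46 cases, and the partner wholly inside the regained region in 110. The centres of both were a median of 169 bp apart, and at most 500 bp apart in 285 pairs (81.7%). Of the 349, 345 had 1 partner and 4 had 2, while 7 partners spanned 2 regained regions each. In all, 71.7% of the bases of the regained regions lay in a partner. At the edge of the rule, the shortest overlaps were 6 bp at chr13:99943778-99944972 and 13 bp at chr10:32976387-32977060 and chr4:104773115-104774276. The nearest regions outside it lay 24 bp (chr5:77558212-77558980), 46 bp (chr15:27432857-27434760) and 62 bp (chr19:32275269-32276627) from a region of the higher list. In all, 51 regions of the lower list outside the rule (1.48% of those not regained) lay within 1000 bp of one, and the median distance of those not regained was 244400 bp.

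**Figure D2:**
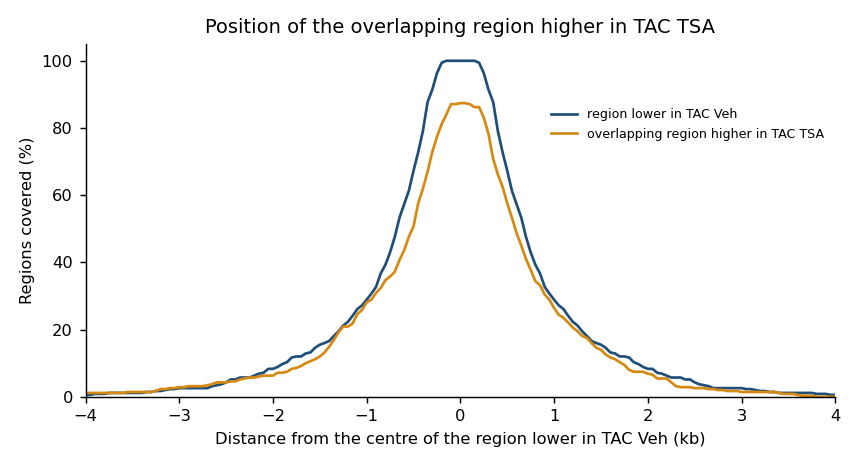
Percent of the 349 regained regions covered at each distance (kb) from the centre of the region lower in TAC Veh, by that region itself and by the overlapping region higher in TAC TSA. At the centre 87.4% were covered by a partner, and at 1000 bp on either side the share was 28.1% and 26.4%, close to the 28.9% of the regions themselves.

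Start and end were the same in different lists only where the library with the higher signal was the same. The lists in which TAC TSA was the higher library had 537 regions in common, and all 537 had the same start and end in both. The lists in which TAC Veh was the higher library shared 384 regions, all 384 with the same start and end. Between the lower list and the higher list, whose higher libraries are Sham Veh and TAC TSA, none of the overlapping regions had the same start and end.

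The 12 regained regions with the highest scores in the lower list were wide, from 1593 to 4928 bp. Their highest score was 304.67, in a list that reached 598.65, at chr13:12220702-12225629 (4928 bp, mm9 as all region positions here). Its partner in TAC TSA, chr13:12222874-12225417, had a score of 122.35 and covered 51.6% of it, at its end with the higher coordinates. Only part of this block was thus listed as higher with TSA. The next was chr18:10784398-10788078 with 275.05 and a partner score of 125.02. At chr14:63936367-63938455 the scores were 257.51 and 140.29, and the partner covered 92.5%. In the following ones, too, nearly the whole region had a partner. At chr16:30258877-30261764 they were 250.29 and 156.41, with 90.0% covered. The region chr17:7476785-7478918 had 231.05 and 96.25 with 97.8% covered, and chr15:58153334-58155809, which lay wholly inside its partner, 222.26 and 92.76.

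The other 6 of the 12 highest scores included regions whose partners had low scores. The region chr18:12351976-12356137 scored 201.96, while its partner scored 46.47 and covered 23.8% of it. At chr19:53802973-53807174 the scores were 178.67 and 45.65, and 47.5% was covered. At chr10:52896267-52898855 they were 194.58 and 59.82, with 2 partners that covered 59.4%. By contrast chr1:43246403-43250009 (193.46), chr8:95720331-95721923 (182.41) and chr13:73398209-73402982 (177.56) had partner scores of 140.26, 152.73 and 199.48. Of these the chromosome 13 region was covered over 99.5% of its 4774 bp. A high score in the lower list was therefore paired with a high partner score in some regions and with one near the lowest listed score in others. What the scores say of the size of a change is not known.

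Ranked by the partner's score, the top was a pair on chromosome 9. The regions chr9:114726195-114727452 (score 111.0) and chr9:114727462-114728340 (177.17) lay 9 bp apart and shared the partner chr9:114726315-114728475, which scored 260.48. Next came the chromosome 13 region given above and chr2:179938799-179941748, whose partner scored 175.17 against 93.97 in the lower list and covered it whole. The lowest score in the lower list among these was 51.41, at chr19:36337589-36338955, whose partner scored 153.6. At chr18:61489780-61493465 the scores were 103.83 and 149.42, at chr6:84105023-84106898 132.87 and 143.4, and at chr19:53865715-53873541 104.34 and 137.41. Of the 12 highest in each ranking, 5 were the same regions. Scores of at least 100 in both lists were found in 17 of the 349.

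**Figure D3:**
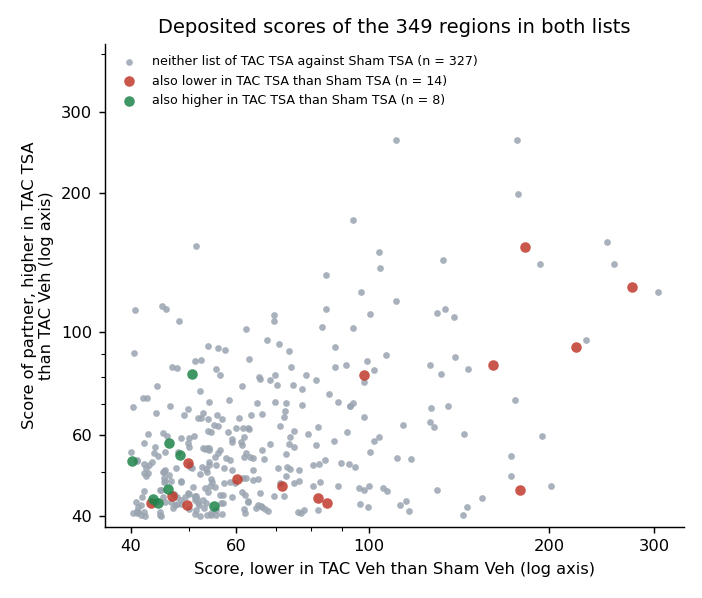
Deposited score of each regained region in the lower list (x) against that of its partner in the higher list (y), both on log axes, coloured by whether the region also overlaps a list of TAC TSA against Sham TSA. The 8 regions also higher in TAC TSA than Sham TSA have lower-list scores of 40.09 to 55.02, and the 14 also lower reach 275.05.

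The 5 widest regained regions were mostly covered in part. The widest, chr10:53054545-53065156 (10612 bp), had a partner over 20.2% of its length. At chr14:55585717-55595849 (10133 bp) the partner covered 15.8%, at its end with the lower coordinates. The regions chr10:80245111-80252652 (7542 bp) and chr5:17388558-17395352 (6795 bp) were covered over 63.3% and 75.6%, and chr19:53865715-53873541 (7827 bp) over 64.0%. Regained regions over 4000 bp numbered 29, and those under 500 bp 13.

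Regained regions lay near other lost regions. Another region of the lower list stood within 10 kb of 117 of the 349 (33.5%), against 554 of the 3448 not regained (16.1%), and within 2 kb of 19.5% against 6.76%. The distance to the nearest other lower region had a median of 40660 bp for regained regions and 83240 bp for the rest. Wider regions stand closer to their neighbours for the same spacing, and the part of width here was not tested. Most regained regions stood apart from each other, with a median of 1.1 Mb to the next and 274 with none within 50 kb. The other 75 formed 33 groups, 29 of them pairs, in which neighbours lay at most 50 kb apart. Neighbouring regions share their surroundings and are not independent of each other.

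In the spans of the 4 groups with 3 or more regained regions, every region of the lower list but 1 was regained. A span starts and ends at a regained region, which favours a high share, and lower regions outside it were not counted. On chromosome 1, 5 regions spanned chr1:43235996-43255395 (19.4 kb), which held no other region of the lower list. Their scores were 62.36, 126.38, 62.72, 193.46 and 80.67 in order of position, and their partners covered 10.8%, 46.0%, 82.3%, 77.0% and 31.8% of them. On chromosome 18, 5 regions in chr18:24996768-25028970 had lower-list scores of 40.55 to 154.82 and partner scores of up to 111.75. The region with the highest partner score there, chr18:24996768-24997271, was the one with the lowest score in the lower list. A further 3 narrow regions lay at lower coordinates, in chr18:24860873-24909517, with scores of 45.45 to 51.89. On chromosome 5, 4 of the 5 lower regions in chr5:30889107-30908953 were regained, with scores of 52.81 to 99.17 and partner scores of up to 93.12. After the pair on chromosome 9, the next group by score was chr8:87885391-87910941, where 2 of 4 lower regions were regained. The higher-scoring of the 2, at 172.82, had a partner with a score of 48.94.

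Regained regions occurred on all 19 chromosomes, at 3.76% to 15.8% of the lower list. Chromosome 13 had 28 of 177 regions regained (exact binomial 95% interval 10.8% to 22.0%), chromosome 18 26 of 172 (15.1%, 10.1% to 21.4%) and chromosome 16 19 of 127 (15.0%, 9.25% to 22.4%). Chromosome 11 had the lowest share, 10 of 266 (1.82% to 6.8%), although after chromosomes 5 and 1 it had the most regions in the lower list. The intervals cover counting error and treat neighbouring regions as independent. Of the higher list, chromosome 11 held 112 regions, 8.04% of them partners, and chromosome 18 held 108, 24.1% of them partners.

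**Figure D4:**
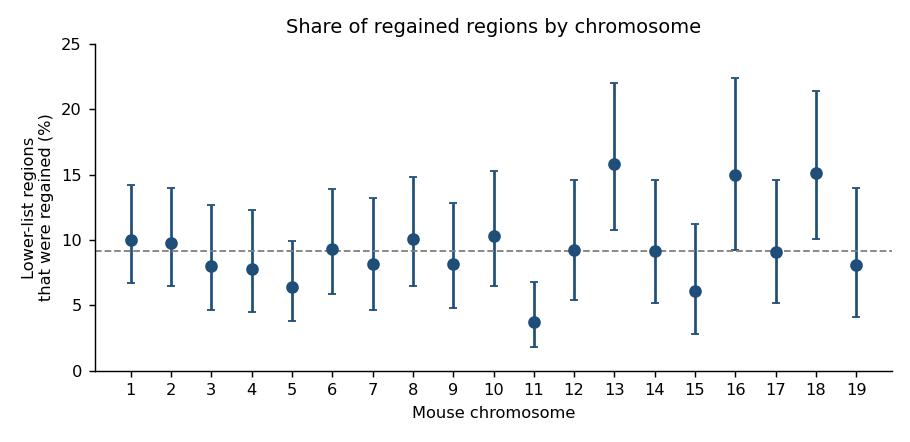
Percent of lower-list regions that were regained on each mouse chromosome, with exact binomial 95% intervals (counting error only) and the share over all 19 chromosomes, 9.19%, as a dashed line. Chromosomes 13, 16 and 18 lie above the line and chromosome 11 below it, and only those of chromosomes 11, 13, 16 and 18 have intervals that exclude it.

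The lists of TAC TSA against Sham TSA bring in a library that the rule did not use, Sham TSA, although they share TAC TSA with it. Among the regained regions 14 overlapped a region lower in TAC TSA than in Sham TSA (4.01%), against 226 of 3448 not regained (6.55%) and 6.32% of the whole lower list. A further 8 overlapped a region higher in TAC TSA than in Sham TSA (2.29%), against 4 of 3448 (0.116%) and 0.316% of the whole lower list. The remaining 327 overlapped neither. Of the partners, 8 of 346 were in that higher list, against 529 of the 1745 regions of TAC TSA over TAC Veh without a partner (30.3%). The rule bears on both differences from regions not regained, the smaller share lower in TAC TSA and the larger share higher in it. Neither was tested, since every regained region overlaps a region higher in TAC TSA than TAC Veh. Of those, 537 recur with the same start and end in TAC TSA over Sham TSA, among them the partners of all 8. No regained region overlapped a region higher in TAC Veh than in Sham Veh or lower in TAC TSA than in TAC Veh, directions opposite to the rule. In the whole lower list these were 0 (0.0%) and 5 (0.132%).

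The 14 regions lower after overload with either injection were wide and high in score, with a median width of 1522 bp and a median score of 83.68. They included 4 of the 12 with the highest scores in the lower list. At an overlap of at least 50% of the regained region 11 of the 14 were left. Of those 4, chr8:95720331-95721923 met its region over 100 of 1593 bp, and the other 3 over at least 97.1% of their length. In TAC TSA against Sham TSA, chr18:10784398-10788078 scored 40.47, chr15:58153334-58155809 50.8, chr8:95720331-95721923 41.62 and chr19:53802973-53807174 40.79, in a list that reaches 394.4. The highest score of the 14 in that comparison was 66.74, at chr14:61875621-61877396, which scored 60.14 under vehicle. The others named by rank were chr19:27387416-27388264 (161.33 under vehicle, 49.44 under TSA), chr12:33452364-33453421 (98.07, 43.8), chr8:79756649-79758098 (85.07, 48.07), chr13:103119645-103120576 (82.29, 52.78) and chr12:111770235-111771944 (71.61, 48.45). Of those named by rank, chr12:33452364-33453421 met its region over only 272 of 1058 bp. Scores of different lists are not on 1 scale and are set side by side only.

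The promoter table gave the only counts per library, and the same course was read from it. Regions were not tied to genes, since no gene annotation of mm9 was used here. Promoter counts summed to 9612616 in Sham Veh, 8873302 in TAC Veh, 6842296 in TAC TSA and 9905553 in Sham TSA. After scaling by the trimmed mean of M-values, a promoter was counted when it was at least 1.5-fold apart and the exact 95% interval of its log2 ratio, for counting error only, excluded 0. Of 22835 promoters 133 were lower in TAC Veh than Sham Veh (0.582%), 927 were higher in TAC TSA than TAC Veh (4.06%), and 88 were both (0.385%). These 88 are 66.2% of the lower and 9.49% of the higher promoters, and both comparisons share TAC Veh. Scaled on the promoters of receptors silent in heart instead, 35 promoters followed the course, 25 of them among the 88.

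The choice of the 88 fixed that TAC Veh was low, so only values without TAC Veh are given for the Sham TSA library. Sham Veh and TAC TSA also entered the choice, each as the higher library. The ratios below are therefore not free of the choice and were not tested. Their median log2 ratio was 0.09 in Sham TSA over Sham Veh and 0.06 in TAC TSA over Sham TSA, beside 0.0073 and −0.013 over all promoters. None was at least 1.5-fold apart between the sham libraries, where 0.582% of all promoters were higher and 0.582% lower. In TAC TSA over Sham TSA 6 were higher (6.82%, against 7.2% of all) and none lower (against 0.206%). The smallest mean count among the 88 was 17.75 and the median 172.6, against 228.2 over all promoters. A mean count of at least 100 was reached by 56 of the 88. Of 1278 promoters of receptors silent in heart 2 were among the 88. The promoters named below were picked by high count or large change or from fixed gene lists, and do not stand for all 88.

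The contractile apparatus, the sarcomere, slides actin along myosin filaments. The gene lists used here and below were chosen with earlier results of these data known. The share of a list that followed the course is thus a description and was not tested. Of 20 sarcomere genes 6 followed the course (Myh6, Actc1, Tnnt2, Actn2, Csrp3 and Mylk3), against 0.385% of all promoters. The list's median log2 ratio was −0.46 in TAC Veh over Sham Veh and 0.63 in TAC TSA over TAC Veh, beside −0.00055 and 0.0014 over all promoters. Scaling on receptor promoters shifted the median of all promoters to −0.24 and −0.38, and that of the sarcomere list to −0.70 and 0.25. Counts of single promoters here and below are not scaled, and scaling raised only those of TAC TSA. Myh6, the adult alpha myosin heavy chain, had 553 counts in Sham Veh, 289 in TAC Veh, 497 in TAC TSA and 665 in Sham TSA. Only the TAC Veh library was low for Myh6, also after scaling. Against Sham Veh and TAC TSA this was fixed by the choice of promoters that followed the course. A TAC Veh library chosen to be low also favours a higher Sham TSA. Mhrt, an antisense transcript of the same locus that may share its reads, ran from 633 in Sham Veh to 326 in TAC Veh and 516 in TAC TSA. Actc1, cardiac actin, had 396, 205, 360 and 443 counts in the same order of libraries. Tnnt2, the troponin that anchors the complex to tropomyosin, had 504, 309, 390 and 599. Lmod2, which promotes elongation of actin filaments, had 355, 215, 307 and 475. Its log2 ratio was −0.63 (−0.88 to −0.38) after overload and 0.85 (0.59 to 1.11) with TSA.

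Among calcium handling and channel genes 4 of 15 followed the course (Cacna1c, Kcnj3, Pln and Ryr2), against 0.385% of all promoters. The list medians were −0.50 and 0.60. With receptor promoter scaling these were −0.74 and 0.22. Kcnj3, a subunit of the acetylcholine-gated potassium channel, had 175 counts in Sham Veh, 80 in TAC Veh, 169 in TAC TSA and 260 in Sham TSA. Its log2 ratio was −1.04 (−1.44 to −0.65) after overload and 1.41 (1.02 to 1.82) with TSA, and it stayed in the set at a 2-fold threshold. Ryr2, the calcium release channel of the sarcoplasmic reticulum, had 298, 171, 232 and 321 in the same order. Srl, a calcium-binding protein of the sarcoplasmic reticulum, had 361, 211, 273 and 383. Popdc2, a cyclic AMP-binding membrane protein of heart and its conduction system, had 533, 304, 424 and 647. Its ratios were −0.72 (−0.93 to −0.51) and 0.82 (0.60 to 1.03). Pln, the inhibitor of the calcium pump, had 402, 250, 303 and 526, and in TAC TSA it lay below Sham TSA (−0.34, −0.54 to −0.13).

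Of 15 genes of fatty acid metabolism 2 followed the course, against 0.385% of all promoters. They were the fatty acid transporter Cd36 and the lipid-sensing receptor Ppara. The list medians were −0.36 and 0.25. With receptor promoter scaling the latter was −0.13. Ppara had 490 counts in Sham Veh, 293 in TAC Veh, 398 in TAC TSA and 535 in Sham TSA, and Cd36 436, 258, 342 and 536. Plin4, a coat protein of lipid droplets, had 570, 344, 423 and 564, with log2 ratios of −0.64 (−0.83 to −0.44) and 0.63 (0.43 to 0.84). Mb, the oxygen-binding myoglobin, had 441, 272, 373 and 484, and Cox8b, a subunit of cytochrome c oxidase, 345, 208, 293 and 363. The amino acid transporter Slc38a3 had 562, 322, 383 and 546, and the mitochondrial carrier Slc25a34 487, 265, 357 and 515. After scaling, Slc38a3 stood at 516, 315, 473 and 491. In each of these TAC Veh lay below Sham Veh and TAC TSA because the promoters were chosen so. Sham TSA did not enter the choice and also lay above TAC Veh. A TAC Veh library chosen to be low favours this, so it was not tested. The carboxylesterase Ces1d had the largest sum of both changes among promoters with a mean count of at least 100, with 190, 68, 148 and 252 counts.

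Of 14 cardiac transcription factors 3 followed the course (Nkx2-5, Tbx5 and Myocd), against 0.385% of all promoters. The list medians were −0.14 and 0.16, the latter −0.23 with receptor promoter scaling. Of 7 measured genes of muscle protein turnover 2 followed the course (Asb2 and Trim63). Trim63 was close to the 1.5-fold limit after overload (log2 ratio −0.586) and lost the call with every other scaling used. The medians of the turnover list were −0.30 and 0.69, or −0.54 and 0.30 with receptor promoter scaling. Nkx2-5 and Tbx5 pattern the developing heart and remain active in the adult. Tbx5 had 330 counts in Sham Veh, 176 in TAC Veh, 269 in TAC TSA and 398 in Sham TSA. Nkx2-5 had 352, 212, 288 and 414 in the same order, and Myocd, a coactivator of serum response factor, 313, 182, 250 and 315. Asb2, the substrate adaptor of a ubiquitin ligase, had 493, 263, 404 and 479. Of the microRNA genes, Mir1a-2 had 329, 157, 236 and 362, and Mir1b, whose counts were nearly the same and which may share its reads, 330, 160, 240 and 366. The cardiac kinase Tnni3k had 141, 63, 102 and 158. Retreg1, a receptor for the autophagy of endoplasmic reticulum, had 343, 212, 318 and 425. Pgam2, the muscle phosphoglycerate mutase, had 367, 223, 326 and 424. With scaling on receptor promoters 9 of the 36 promoters named by rule kept both calls, among them Myh6 (−1.08 and 0.73), Kcnj3 (−1.28 and 1.03), Actc1 (−1.10 and 0.76) and Ces1d (−1.63 and 1.07). For Tnnt2 the ratio with TSA was then 0.29 and for Cd36 0.36, short of 1.5-fold. Of the gene list members that followed the course, only Myh6, Actc1 and Kcnj3 kept both calls with receptor promoter scaling. Those of fatty acid metabolism, the transcription factors and muscle protein turnover were all lost.

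**Figure D5:**
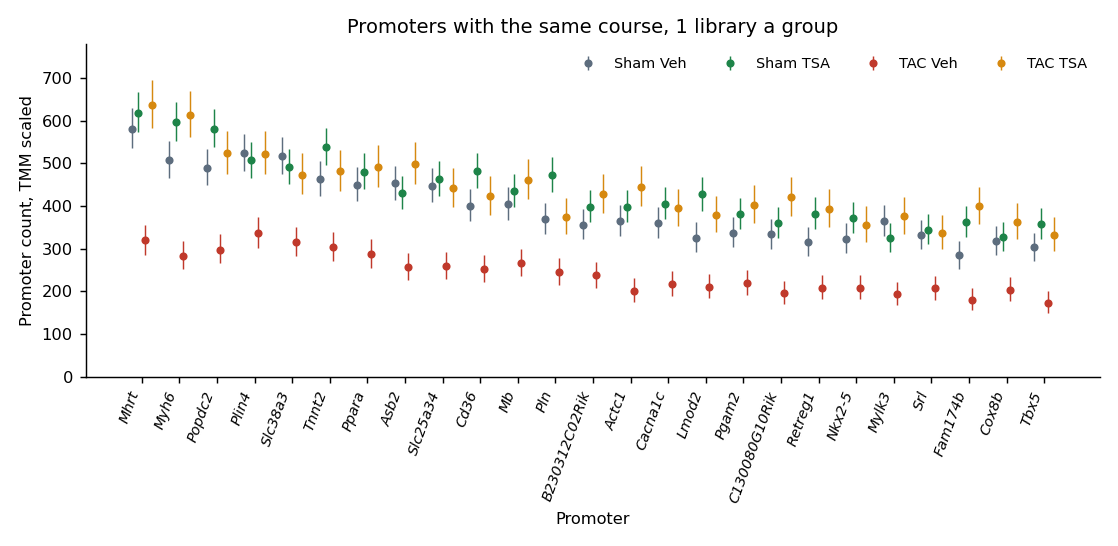
Scaled promoter counts (y, from 0) in the 4 libraries for the 25 promoters of this course with the highest mean count, with exact Poisson 95% intervals (counting error only, 1 library a group). TAC Veh lies below Sham Veh and TAC TSA in all 25 because they were chosen so, for example Myh6 at 283 against 508 in Sham Veh, 598 in Sham TSA and 614 in TAC TSA.

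Markers of the labelled tissue were present, and the sums for cardiomyocyte and endothelial markers were lowest in TAC Veh. All 10 cardiomyocyte markers were measured, with a median scaled count of 403.8 in Sham Veh against 15.62 for 1278 olfactory and vomeronasal receptor promoters, and 5 followed the course. None of 8 fibroblast, 7 measured leukocyte, 6 endothelial or 4 smooth muscle markers did. Of all 22835 promoters 88 did (0.385%), so a count of 0 among so few markers does not set these cell types apart. Of the leukocyte markers 2 were at least 1.5-fold higher in TAC Veh than Sham Veh and 3 lower in TAC TSA than TAC Veh, and of the fibroblast markers 2 and 1. Over all promoters these shares were 1.93% and 0.342%. The summed scaled count of the leukocyte markers was 830.5 in Sham Veh, 1114 in TAC Veh, 734.3 in TAC TSA and 1084 in Sham TSA. In that order it was 1613, 2068, 1689 and 1715 for fibroblast markers and 3942, 2697, 4529 and 4588 for cardiomyocyte markers. For endothelial markers it was 3142, 2707, 2891 and 3050, and for smooth muscle markers 695.5, 759.2, 760.2 and 711. No fibroblast or leukocyte marker was at 0, and the lowest was Ptprc, with 50 counts in TAC TSA. Their part in the result was not tested, and in whole ventricle fewer cells of a type and less acetylation per cell cannot be told apart. The median of the receptor promoters was 19.59 in TAC Veh, 27.2 in TAC TSA and 16.18 in Sham TSA, so this background was highest in TAC TSA, and its part in the result was not tested either.

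Sequences were used for promoters of this course, to show what lies just before their start sites. RefSeq entries of the GRCm38.p6 build matched 61 of the 88 genes, 51 of them with a single entry. The 4 below had the largest changes among those with a single entry and a mean count of at least 100, and the 250 bases before the start site are given 5′ to 3′. They are at chr2:55435720-55435969 (Kcnj3, + strand), chr3:155055408-155055657 (Tnni3k, − strand), chr2:114052876-114053125 (Actc1, − strand) and chr14:54966608-54966857 (Myh6, − strand), in GRCm38.p6 and not in the mm9 build of the regions. Capitals mark matches, on either strand, to the motifs searched, which are named after the sequences.
Kcnj3: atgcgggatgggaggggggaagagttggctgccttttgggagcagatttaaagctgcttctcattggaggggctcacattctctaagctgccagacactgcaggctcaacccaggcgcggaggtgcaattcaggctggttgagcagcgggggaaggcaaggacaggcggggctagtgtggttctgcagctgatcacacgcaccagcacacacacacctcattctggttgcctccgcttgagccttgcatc
Tnni3k: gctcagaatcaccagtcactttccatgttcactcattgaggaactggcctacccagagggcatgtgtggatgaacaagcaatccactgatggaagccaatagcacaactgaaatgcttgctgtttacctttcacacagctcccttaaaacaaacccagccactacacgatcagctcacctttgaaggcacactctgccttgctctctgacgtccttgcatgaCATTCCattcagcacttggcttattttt
Actc1: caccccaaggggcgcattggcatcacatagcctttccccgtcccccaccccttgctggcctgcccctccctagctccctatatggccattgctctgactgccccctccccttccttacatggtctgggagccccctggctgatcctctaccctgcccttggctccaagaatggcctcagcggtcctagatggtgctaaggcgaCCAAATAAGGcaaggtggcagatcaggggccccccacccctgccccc
Myh6: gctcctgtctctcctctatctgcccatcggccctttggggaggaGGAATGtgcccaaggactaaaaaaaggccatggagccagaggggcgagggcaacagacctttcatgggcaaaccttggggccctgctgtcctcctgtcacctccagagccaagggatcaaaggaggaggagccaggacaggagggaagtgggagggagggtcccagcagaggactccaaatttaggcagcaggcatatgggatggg

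The motifs searched may overlap each other. Cardiac zinc finger factors of the GATA family bind AGATAA. The element called M-CAT reads CATTCC and is bound by TEAD factors. Estrogen-related receptors, which drive oxidative metabolism, bind AAGGTCA. The last ones were the TATA box with the letters TATAAA, and the MEF2 and CArG boxes, whose degenerate letters are given by name alone. In Actc1 the match was a CArG box, the element bound by serum response factor, from 47 to 38 bases before the start. In Tnni3k an M-CAT element lay 28 to 23 bases and in Myh6 one 206 to 201 bases before the start, and no motif searched occurred in the Kcnj3 window. Among the 51 promoters of this course with a single entry, 6 held AGATAA (11.8%, against 10.4% of all 22862 promoters of genes with a single entry). CATTCC was in 5 (9.8% against 12.6%) and AAGGTCA in 2 (3.92% against 4.05%). TATAAA was in 13 (25.5% against 13.6%), a MEF2 box in 3 (5.88% against 3.11%) and a CArG box in 1 (1.96% against 1.38%). Of the 30 with a mean count of at least 100, 5 held TATAAA and 5 CATTCC (16.7% each). A match is a description and not a binding site, and the differences in share were not tested.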

How the data were processed

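Acetylated H3 was profiled in 1 left ventricle library for each of 4 groups. The deposited count table holds whole, not normalised read counts in the promoters of RefSeq transcripts, per the file headers. The authors also deposited 6 lists of regions in which every region has a score. MACS 1.4.1, BWA 0.5.9 and the mm9 build were used, per the submitters' processing notes. What each did, how wide a promoter was taken and how duplicates were handled is not given in the sources used here. Region starts were converted to 1-based positions. Regions were paired at an overlap of at least 1 bp, and grouped when at most 50 kb apart.

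Of 31594 RefSeq IDs 31115 (98.5%) were matched to a symbol of GRCm38.p6, used for names. Unmatched IDs, with 1.11% of all counts, were not used. Each gene was represented by its ID with the highest mean count, and 22835 with a mean of at least 10 were kept. Libraries were scaled by TMM (edgeR 4.0.16, R 4.3.3), and ratios have exact conditional 95% intervals, which treat PCR reads as independent and cover counting error only. With 1 library a group no test between conditions was made. The totals of 6842296 to 9905553 counts limit promoters with few counts. Alternatives were DESeq2 1.42.0 size factors, loess on mean count (limma 3.58.1, span 0.4), receptor promoters, no filter, a 2-fold threshold, and other overlaps, scores and distances. The computations were tested on simulated data. Python 3.11.15 was used for the rest.

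Regions named were the 12 with the highest score in each list, the 5 widest, the 6 groups with most regions, up to 10 per list of TAC TSA against Sham TSA, and 3 on each side of the rule. Promoters named were the 25 with the highest mean count among the 88, the 10 with the largest sum of both changes at a mean of at least 100, and those in the lists. The regions and gene lists were chosen with earlier results of these data known. Murc and Cd68 were not measured. All columns of counts were used.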

Additional observations from a re-analysis of the deposited data

Results flagged for a closer look

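The listed direction after overload differed between vehicle and TSA in 8 regained regions, which were lower in TAC Veh than Sham Veh and higher in TAC TSA than Sham TSA. The difference itself was not tested, and each direction rests on 1 library a group. The 8 are 2.29% of the regained regions, against 0.316% of the whole lower list. Of the whole higher list, from which the partners come, 25.7% overlapped a region higher in TAC TSA than Sham TSA. All 8 were narrow, from 399 to 776 bp, with scores of 40.09 to 55.02 in the lower list, near its lowest value of 40. They are chr1:162680912-162681448 (score 50.55 in the lower list, 49.31 in TAC TSA over Sham TSA), chr2:63890711-63891263 (40.09, 43.26), chr6:146533104-146533820 (48.34, 40.39), chr9:46510025-46510446 (44.41, 47.83), chr12:101382445-101383007 (46.12, 45.08), chr15:67032749-67033524 (46.24, 51.02), chr17:23757253-23757651 (43.58, 40.61) and chr18:38901959-38902704 (55.02, 43.96). In all 8 the partner in TAC TSA over TAC Veh had the same start and end as the region in TAC TSA over Sham TSA.

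Of the 88 promoters with the same course, 6 were also at least 1.5-fold higher in TAC TSA than Sham TSA, without a test of the difference. They are Gm829, Egr4, Slc38a5, Spata46, Glyatl3 and Sprr2i, all chosen by this rule after their values were seen. Egr4 had 77 counts in Sham Veh, 47 in TAC Veh, 72 in TAC TSA and 57 in Sham TSA. Sprr2i, with the fewest counts, had 28, 13, 28 and 19. Over all promoters 7.2% were higher in that comparison.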

How the results depend on the processing

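Limiting both lists to regions at or above their median score left 197 of the 349 regained regions. An overlap of at least 50% of the lower region left 290, a reciprocal overlap of 50% left 281, and all chromosomes gave 350, all within 1.5 times. The median width (1295 to 1298 bp) and score (58.04 to 58.46) moved little with these overlaps. Of the 8 regions also higher in TAC TSA than Sham TSA, 2 were at or above the median score of the lower list, and of the 14 also lower, 12 were. With neighbours at most 25 kb or 100 kb apart, 3 or 5 groups held 3 or more regions, against 4. The 88 promoters became 87 with DESeq2 size factors, 82 with loess scaling (67 shared), 91 without a count filter, 35 with receptor promoter scaling (25 shared) and 7 at 2-fold. Among the named promoters Trim63 lost the call with DESeq2 size factors, and Trim63, Pln and B230312C02Rik lost it with loess scaling. Of the 72 ratios of named promoters, 46 moved beyond their counting interval with receptor promoter scaling, none changed sign, and all stayed within it with DESeq2 size factors or loess. No paired analysis was possible because each group is 1 library. No library could be left out for the same reason. Depth limits promoters with few counts, and the depth behind a region's score is unknown.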
